A study of Mus musculus with 8 samples.

Results

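The tumour suppressor p53, encoded by Trp53, and 9 of its target genes were followed in the N2a line of mouse neuroblastoma cells. The 10 genes were chosen by symbol in the deposited table from 49164 genes with counts, with earlier results of these data known. All 10 passed the filter on low counts and were among the 15187 genes tested. The targets are Mdm2, Mdm4, Ccng1, Cdkn1a, Phlda3, Aen, Trp53inp1, Zmat3 and Sesn1.

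The OE and control groups each had 4 libraries of polyA RNA. The Nrsn2 overexpression (OE) samples came from cells collected 24 hours after transient transfection of a construct for neurensin-2, a membrane protein of neuronal vesicles. The control libraries carry the same collection time, and the labels do not say whether their cells received an empty vector or the transfection reagent. Both groups are the same cell line in the same culture medium. Neither the promoter of the construct nor the share of cells transfected is stated in the labels. Separate cultures are not stated for the 4 libraries of a group either. The p-values therefore rest on differences among libraries that may be technical only.

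p53 is a transcription factor that is kept scarce in unstressed cells, because the ubiquitin ligase Mdm2 marks it for degradation and the related protein Mdm4 blocks its activating domain. After DNA damage and other stresses p53 is stabilised, binds its response elements and switches on genes that arrest the cell cycle, repair DNA, restrain growth signals or kill the cell. Mdm2 is itself a target, which closes a negative feedback loop. Control of p53 acts largely on the protein, which was not measured here.

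The start of a gene is one place where p53 can bind, so the windows from 250 bases before to 50 bases after each RefSeq transcription start were searched for the p53 half-site consensus. This motif has 10 bases and reads the same on both strands. The RefSeq table of build GRCm38.p6 held 12 windows for 8 of the 10 genes, and the half-site was found in 7 windows, belonging to Trp53, Mdm2, Ccng1, Cdkn1a, Aen and Sesn1. Of all 32851 windows in the table, 8.36% held it. A full site of 20 bases was also searched, made of half-sites back to back that both keep the core CNNG and together carry at most 2 mismatches. It was found for Ccng1 and Cdkn1a, and in 0.33% of all windows. Windows of 4 genes are shown, those of Trp53, of its main antagonist Mdm2 and of the genes with a full site, because the first 3 of these genes changed, in opposite directions, and the last did not pass. Capitals mark half-sites and full sites.
Trp53 (chr11:69580109-69580408, plus strand, half-site from base -75 relative to the start): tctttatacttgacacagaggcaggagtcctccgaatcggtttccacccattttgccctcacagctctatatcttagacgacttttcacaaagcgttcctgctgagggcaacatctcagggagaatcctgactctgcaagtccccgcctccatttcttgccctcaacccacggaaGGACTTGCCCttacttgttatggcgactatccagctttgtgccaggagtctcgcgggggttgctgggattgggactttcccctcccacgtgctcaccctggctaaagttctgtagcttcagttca
Mdm2 (chr10:117710709-117711008, minus strand, half-site from base -186): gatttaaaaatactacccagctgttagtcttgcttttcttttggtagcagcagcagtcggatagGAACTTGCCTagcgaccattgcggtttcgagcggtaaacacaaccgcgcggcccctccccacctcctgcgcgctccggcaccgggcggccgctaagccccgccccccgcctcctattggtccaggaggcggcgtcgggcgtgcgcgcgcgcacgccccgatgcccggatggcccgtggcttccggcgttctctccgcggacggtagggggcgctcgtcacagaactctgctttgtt
Ccng1 (chr11:40755237-40755536, minus strand, full site from base -195): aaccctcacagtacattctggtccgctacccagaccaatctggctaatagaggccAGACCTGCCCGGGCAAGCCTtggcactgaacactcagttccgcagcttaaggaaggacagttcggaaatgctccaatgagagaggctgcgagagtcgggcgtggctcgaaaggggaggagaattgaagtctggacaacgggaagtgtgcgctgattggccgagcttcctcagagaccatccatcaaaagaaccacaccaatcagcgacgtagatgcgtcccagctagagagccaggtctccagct
Cdkn1a (chr17:29090729-29091028, plus strand, an upstream start, half-site from base -73 and full site from base -51): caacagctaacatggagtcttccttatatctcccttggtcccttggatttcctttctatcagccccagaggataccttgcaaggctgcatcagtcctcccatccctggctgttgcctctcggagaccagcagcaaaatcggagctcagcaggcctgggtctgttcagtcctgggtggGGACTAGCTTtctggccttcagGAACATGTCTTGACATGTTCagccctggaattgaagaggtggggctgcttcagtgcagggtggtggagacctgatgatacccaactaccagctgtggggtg
The full site of Ccng1 reads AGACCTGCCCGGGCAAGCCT and that of Cdkn1a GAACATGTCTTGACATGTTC, each with 1 mismatch to the consensus. A match describes the letters and does not show binding, and genes with no match may carry sites elsewhere.

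The transfected gene stood apart between the groups. Nrsn2 ranged from 147 to 173 CPM in the OE libraries, against 6.54 to 10.6 CPM in the control libraries. CPM are counts scaled to a common library total, with the TMM factors of edgeR. Library totals ranged from 17522453 to 21395096 counts in the OE group and from 15347255 to 20600086 counts in the control group. The p53 genes held 50 to 5522 counts per library. The sum of 9 neuronal and sympathoadrenal markers, led by Snap25, was 876 to 912 CPM in the OE libraries, against 1205 to 1342 CPM in the control libraries. Without Snap25 the sum was 529.9 to 571 CPM with OE, against 692 to 723 CPM in control. All 9 were detected, and 5 were lower (Snap25 and Stmn2 among them), 1 was higher (Gata3, 0.48 on the log2 scale) and 3 did not pass. Over all tested genes, 16.8% were lower and 18.6% higher, so that 35.4% passed. Of 15 markers of fibroblasts, glia and leukocytes, 10 stayed under 1 CPM in every library. The leukocyte sum was 1.77 to 2.62 CPM with OE, against 0.868 to 1.41 CPM in control. The glial sum was 11.2 to 14.1 CPM with OE, against 14.1 to 16.9 CPM in control. The fibroblast sum was 7.00 to 8.24 CPM with OE, against 7.27 to 9.12 CPM in control. The part of these shifts in the results below was not tested. In bulk RNA, fewer cells of a type and less RNA per cell cannot be told apart.

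The p53 genes did not move in one direction. Trp53, Mdm2 and Trp53inp1 were higher with OE, Ccng1 and Zmat3 were lower, and the other 5 did not pass. A gene passed when its adjusted p from edgeR's quasi-likelihood test, over all tested genes, was under 0.05. Of the 10 genes, 5 passed (3 higher, 2 lower), while 35.4% of all tested genes passed (18.6% higher and 16.8% lower). The changes of the p53 genes were small. Their median absolute log2 fold change was 0.24, beside 0.23 over all tested genes, and the signed medians were 0.06 and -0.001. Of the 9 targets, 4 had a fold change above 0 and 5 below 0.

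**Figure D1:**
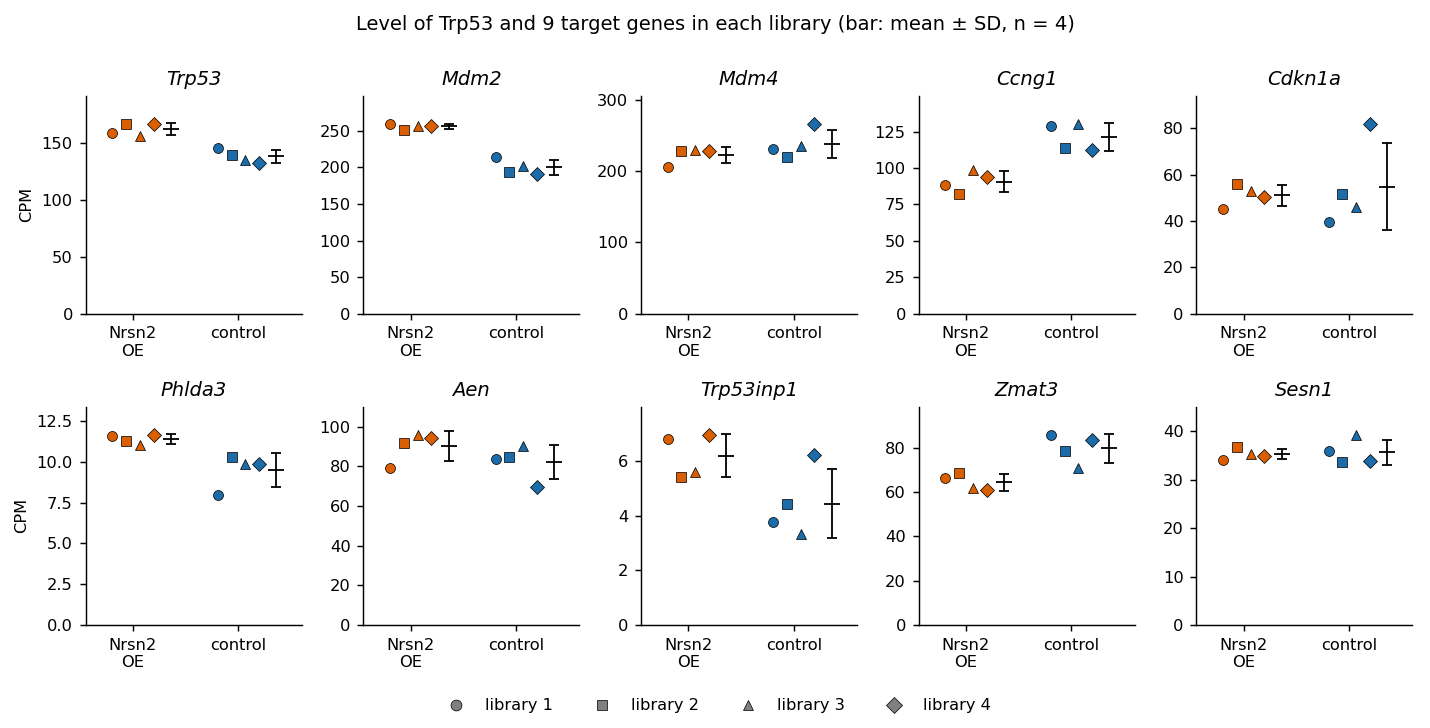
Level in CPM (linear axis from 0) of Trp53 and the 9 target genes in the 4 OE libraries (left, orange) and the 4 control libraries (right, blue), with the mean ± SD beside each group. The groups do not overlap for Trp53, Mdm2, Ccng1, Phlda3 and Zmat3, and control library 4 is high for Cdkn1a and Trp53inp1.

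Trp53 (ENSMUSG00000059552; GRCm39 chromosome 11, 69471185 to 69482699, plus strand), the gene of p53 itself, was modestly higher. It held 158, 166, 157 and 167 CPM in OE libraries 1 to 4, against 145, 140, 135 and 133 CPM in control libraries 1 to 4. Every OE library lay above every control library, by at least 11.2 CPM. The means were 162 ± 5.25 CPM with OE and 138 ± 5.48 CPM in control (SD, n = 4 each). The log2 fold change was 0.23 ± 0.06 (SE; edgeR adjusted p = 0.00549), a rise of 17.2% with a 95% interval from 1.08-fold to 1.28-fold. No other counted gene overlaps Trp53. Its processed copy Trp53-ps, which shares 8.79% of the 31-base words of Trp53 transcripts, held 0 to 2 counts per library.

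By the root mean square distance between mean-centred log2 CPM profiles over the 8 libraries, the genes closest to Trp53 among 8151 with at least 10 CPM were Efna5, Faf2 and Zc3h18. Efna5 encodes an ephrin ligand and lay at a distance of 0.026. Faf2, a factor of protein degradation at the endoplasmic reticulum, lay at 0.030, and the RNA-binding zinc finger gene Zc3h18 at 0.035. Their log2 fold changes were 0.19 ± 0.06, 0.22 ± 0.07 and 0.23 ± 0.06. Values near that of Trp53 follow from choosing the genes by profile over the same libraries. Efna5 did not pass without OE library 2 or 4 or control library 2, 3 or 4 (0.16 to 0.19), nor did Faf2 without control library 3 (0.19).

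Among the regulators of p53 that are also its targets, Mdm2 rose while Mdm4 did not pass. Mdm2 (ENSMUSG00000020184; chromosome 10, 117524780 to 117546663, minus strand) held 259, 251, 256 and 257 CPM in OE libraries 1 to 4. Control libraries 1 to 4 held 214, 194, 201 and 191 CPM. The OE libraries lay close together and all above the control libraries, with a gap of 37.3 CPM. The means were 256 ± 3.30 CPM with OE and 200.1 ± 10.1 CPM in control (SD, n = 4 each). The log2 fold change was 0.35 ± 0.06 (edgeR adjusted p = 1.86e-04).

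Mdm4 (ENSMUSG00000054387; chromosome 1, 132887222 to 132958299, minus strand) held 205, 228, 229 and 228 CPM in OE libraries 1 to 4, against 230, 220, 235 and 266 CPM in control libraries 1 to 4. The groups overlapped, with OE library 1 lowest and control library 4 highest. The log2 fold change was -0.10 ± 0.07 (edgeR adjusted p = 0.29), with a 95% interval from -0.24 to 0.05. Without 1 library it ran from -0.14 (control library 2 left out) to -0.04 (control library 4 left out), with -0.06 without OE library 1, and it was -0.004 with offsets for GC content and length. Reads of Mdm4 could be shared with its processed copy Mdm4-ps, at 2 to 11 counts per library. The pseudogene Gm29257, which lies inside Mdm4 on the opposite strand and is named here after its counts were seen, held 30 to 50 counts in the OE libraries, against 3 to 7 counts in the control libraries (log2 fold change 3.12 ± 0.32; edgeR adjusted p = 1.81e-06). The kit does not mark strand, so reads from this stretch could belong to either gene, though overlap of exons was not examined.

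Because both genes are counted in the same library, their ratio does not depend on scaling. The log2 ratio of Mdm2 to Mdm4 counts was 0.33, 0.14, 0.16 and 0.17 in OE libraries 1 to 4, against -0.11, -0.18, -0.23 and -0.47 in control libraries 1 to 4. Mdm2 had more counts than Mdm4 in every OE library and fewer in every control library. Counts were not divided by transcript length, so their order is not an order of abundance. Per kilobase of transcript, Mdm2 lay above Mdm4 in control too (63.6 and 33.5 CPM per kb). The mean log2 ratio of counts was 0.20 ± 0.09 with OE and -0.25 ± 0.16 in control (SD, n = 4 each). The difference of 0.45 corresponds to a 1.37-fold higher ratio. Its two-sided p in an exact permutation test was 0.0286, which no arrangement of the 70 can undercut. A ratio shows unequal change of the pair and not which gene moved.

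**Figure D2:**
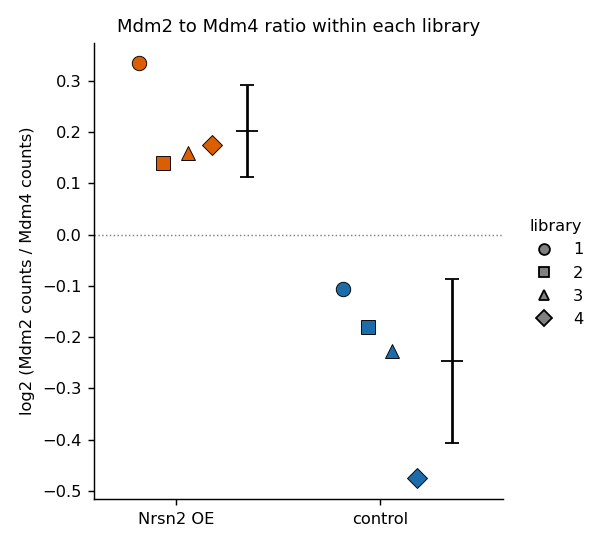
log2 ratio of Mdm2 to Mdm4 counts in each OE library (left, orange) and control library (right, blue), with the mean ± SD of each group. All 4 OE libraries lie above 0 and all 4 control libraries below it, and control library 4 is the lowest at -0.47.

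Ccng1 fell. Like Cdkn1a, which did not pass, it has a full site in a promoter window. For Cdkn1a this is the window of the upstream start, and its other window held no match. Ccng1 encodes cyclin G1, which directs a phosphatase to Mdm2 and so acts on the same feedback loop. Ccng1 (ENSMUSG00000020326; chromosome 11, 40639379 to 40646138, minus strand) held 88.6, 82.0, 98.7 and 93.8 CPM in OE libraries 1 to 4, against 129, 114, 130.2 and 112 CPM in control libraries 1 to 4. Every OE library lay below every control library. The means were 90.8 ± 7.12 CPM with OE and 121 ± 9.61 CPM in control (SD, n = 4 each). The log2 fold change was -0.42 ± 0.07 (edgeR adjusted p = 2.47e-04). With Mdm2 higher, these 2 targets of p53 moved in opposite directions.

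Cdkn1a, which encodes the cyclin-dependent kinase inhibitor p21 that carries out much of the arrest driven by p53, did not pass. Cdkn1a (ENSMUSG00000023067; chromosome 17, 29309950 to 29319701, plus strand) held 45.1, 55.8, 53.1 and 50.4 CPM in OE libraries 1 to 4, against 39.8, 51.6, 46.2 and 81.8 CPM in control libraries 1 to 4. Control library 4 held 1.78 times the mean of the other control libraries and lay above all OE libraries. The log2 fold change was -0.11 ± 0.15 (edgeR adjusted p = 0.613), with a 95% interval from -0.42 to 0.21. Without control library 4 it turned to 0.15 and still did not pass (edgeR adjusted p = 0.227). The direction of Cdkn1a thus depended on 1 library.

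Of the targets linked to cell death, Trp53inp1 passed narrowly, and Phlda3 and Aen did not. Trp53inp1, a stress protein that assists p53 and also takes part in autophagy, was the scarcest of the 10 genes. It held 122, 119, 108 and 126 counts in OE libraries 1 to 4, against 64, 77, 50 and 127 counts in control libraries 1 to 4. These are 6.81, 5.41, 5.61 and 6.94 CPM with OE, against 3.77, 4.44, 3.34 and 6.22 CPM in control. The groups overlapped through control library 4, which held 1.62 times the mean of the other control libraries.

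The log2 fold change of Trp53inp1 (ENSMUSG00000028211; chromosome 4, 11156431 to 11174379) was 0.46 ± 0.17 (edgeR adjusted p = 0.0469). Without control library 4 it was 0.67 (edgeR adjusted p = 0.00415). It no longer passed without OE library 1, 3 or 4 (0.41, 0.50 and 0.40) or without control library 1, 2 or 3 (0.38, 0.45 and 0.35), with edgeR adjusted p from 0.0539 to 0.146. In the authors' deposited table its log2 fold change was 0.46 with an adjusted p of 0.0614. That table marks it significant, since its threshold lies at 0.1, as it does 25.6% of the genes tested there.

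Phlda3 (ENSMUSG00000041801; chromosome 1, 135693857 to 135696874), whose product keeps the survival kinase Akt off the membrane, held 11.6, 11.3, 11.01 and 11.6 CPM in OE libraries 1 to 4. Control libraries 1 to 4 held 7.95, 10.3, 9.88 and 9.84 CPM. The groups did not overlap, with a gap of 0.752 CPM, yet the fit did not call it (log2 fold change 0.26 ± 0.11; edgeR adjusted p = 0.0606). With offsets for GC content and transcript length, an alternative chosen after seeing the data, the log2 fold change was 0.09. Non-overlapping groups were seen for 5 of the 10 genes and for 32.6% of all tested genes.

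Aen (ENSMUSG00000030609; chromosome 7, 78545602 to 78560957), a nuclease that promotes apoptosis, ranged from 78.9 to 95.6 CPM with OE, against 69.7 to 90.2 CPM in control. The groups overlapped, and the log2 fold change was 0.14 ± 0.08 (edgeR adjusted p = 0.202; 95% interval -0.03 to 0.30). Without OE library 1 it was 0.20 and passed narrowly (edgeR adjusted p = 0.0485), and without control library 4 it was 0.06. Pseudogenes share 31-base words with Aen, namely Gm11261 at 185 to 328 counts per library and Gm15298 at 36 to 109 counts, so part of its reads may have been split.

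Zmat3 and Sesn1 encode proteins that act on RNA and on growth control. Zmat3 (ENSMUSG00000027663; chromosome 3, 32388941 to 32420163), a zinc finger protein that binds RNA, held 66.2, 68.7, 61.7 and 60.9 CPM in OE libraries 1 to 4, against 85.6, 78.6, 70.8 and 83.6 CPM in control libraries 1 to 4. It fell, with all OE libraries below all control libraries but a gap of only 2.08 CPM (log2 fold change -0.31 ± 0.07; edgeR adjusted p = 0.00284). Sesn1 (ENSMUSG00000038332; chromosome 10, 41685931 to 41784420), a sestrin that restrains the growth kinase mTORC1, ranged from 34.1 to 36.7 CPM with OE, against 33.7 to 39.2 CPM in control. Its log2 fold change was -0.01 ± 0.07 (edgeR adjusted p = 0.908), and the 95% interval from -0.17 to 0.14 leaves room for small changes either way.

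**Figure D3:**
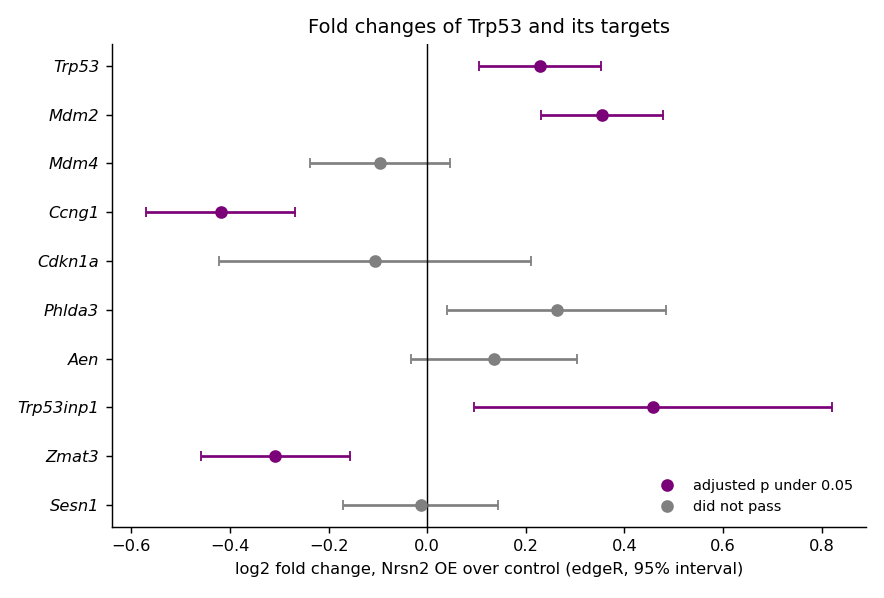
log2 fold change (OE over control) of the 10 genes from edgeR, with 95% intervals as bars. Purple genes passed at an adjusted p under 0.05 and grey genes did not. Trp53, Mdm2 and Trp53inp1 lie above 0 and Ccng1 and Zmat3 below it.

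The calls of Trp53, Mdm2, Ccng1 and Zmat3 held in each of the 14 alternatives. Without each library in turn, the log2 fold changes stayed from 0.20 to 0.25 for Trp53, from 0.33 to 0.39 for Mdm2, from -0.46 to -0.37 for Ccng1 and from -0.36 to -0.27 for Zmat3. With offsets for GC content and length they were 0.17 for Trp53, 0.37 for Mdm2, -0.32 for Ccng1 and -0.27 for Zmat3. Trp53inp1 passed in 8 of the 14 and Aen in 1.

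**Figure D4:**
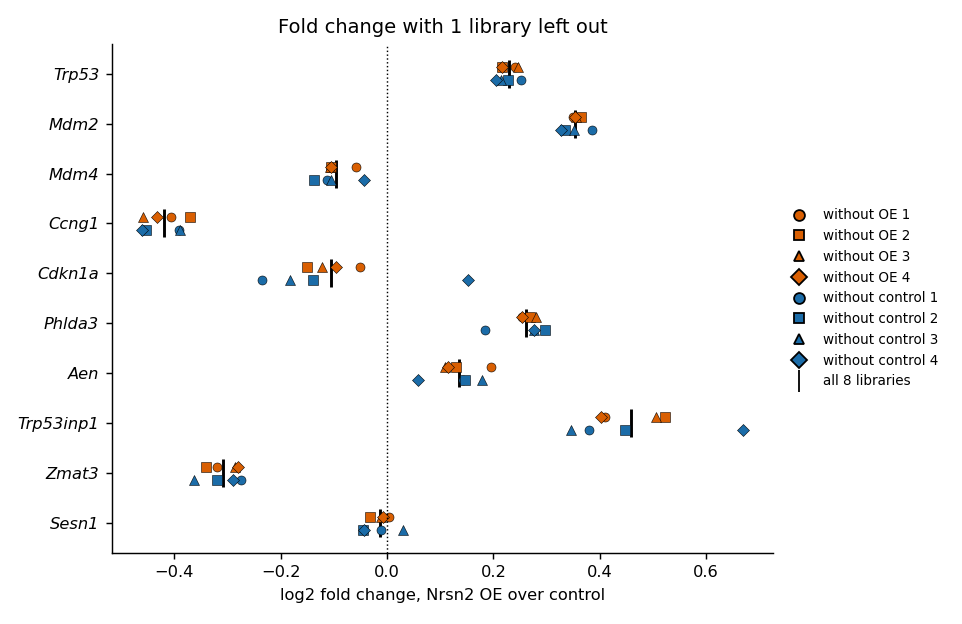
log2 fold change (OE over control) of each gene after leaving out 1 library, with orange symbols for OE libraries, blue symbols for control libraries and a black bar for all 8. Cdkn1a crosses 0 without control library 4, and Trp53inp1 spans 0.35 to 0.67.

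Within groups, the coefficient of variation was lower with OE than in control for all 10 genes when the 8 libraries were used, and for 50.95% of all tested genes. This rested in part on single libraries. Without control library 4 it held for 7 of the 10 genes, the exceptions being Mdm4, Ccng1 and Aen, and for 43.8% of tested genes. Leaving out any other single library gave 8 to 10 genes, and 45.96% to 63.9% of tested genes. The highest share came without OE library 1, where it held for 9 of the 10 genes. These omissions were chosen after seeing the data. The median over the 10 was 5.45% with OE and 8.28% in control, or 7.499% in control without library 4. Cdkn1a varied by 8.99% with OE and 33.9% in control, and by 12.9% in control without library 4. The difference in spread was not tested.

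Per kilobase of the longest GENCODE M21 transcript, Mdm2 was the most abundant of the 10, at 81.3 CPM per kb with OE and 63.6 CPM per kb in control. Trp53 followed at 49.5 CPM per kb with OE and 42.2 CPM per kb in control. Next in the OE libraries came Mdm4 (31.3), Ccng1 (25.9), Cdkn1a (24.6), Aen (18.2), Sesn1 (9.26), Zmat3 (8.26), Phlda3 (7.93) and Trp53inp1 (1.14 CPM per kb). The library ranges of Ccng1 and Cdkn1a overlapped, as did those of Zmat3 and Phlda3. In the control libraries Ccng1 (34.6) and Mdm4 (33.5 CPM per kb) stood in the other order, with overlapping ranges. Zmat3 (10.2) and Sesn1 (9.36 CPM per kb) also stood in the other order there, again with overlap. The lengths come from an older build by gene identifier, so these levels are approximate.

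Paralogues of the 10 genes moved in both directions. Of 12 paralogues 8 were tested, of which 1 was higher and 2 lower, with a median log2 fold change of -0.07. That is 37.5% passing, beside 35.4% over all tested genes. Trp63 and Trp73, the relatives of Trp53, were among the 4 that failed the filter on low counts. Trp53inp2, an autophagy protein and the relative of Trp53inp1, fell (-0.57 ± 0.06; edgeR adjusted p = 2.35e-06), with 113 to 117 CPM with OE and 158 to 184 CPM in control. The stress-induced sestrin Sesn2 rose (0.26 ± 0.09) and Sesn3 fell (-0.19 ± 0.07). Sesn2 did not pass without OE library 2 (0.19) or control library 1 or 3 (0.25 and 0.23). Sesn3 did not pass without any one of OE libraries 1 to 4 or control libraries 1 and 4, with values from -0.21 to -0.14. The nucleolar exonuclease gene Isg20l2 was at 0.09 ± 0.08, and at 0.05 without control library 4.

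Other targets of p53 were counted in lists by role. Of 8 other arrest targets 5 were tested, and a smaller share of them passed than the 35.4% over all tested genes (18.6% higher and 16.8% lower). Of these 5, 0 were lower and 1 was higher, with a median of 0.10. This was Gtse1, a microtubule-binding protein that moves p53 out of the nucleus, at 43.6 to 45.9 CPM with OE and 24.5 to 30.5 CPM in control (0.71 ± 0.08; edgeR adjusted p = 3.21e-06). The antiproliferative gene Btg2 (-0.40 ± 0.22), the kinase gene Plk3 (-0.16 ± 0.12) and the growth arrest gene Gadd45a (0.10 ± 0.11) did not pass. Without control library 4 the values were -0.08 for Btg2 and -0.01 for Plk3. Plk3 was at -0.25 without control library 1, and Gadd45a at 0.03 without control library 1, 0.04 without OE library 4 and 0.15 without control library 4.

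Of 16 other death targets 12 were tested, with 3 higher, 0 lower and a median of 0.21. That is 25.0% passing, beside 35.4% over all tested genes (18.6% higher and 16.8% lower). Bax, which permeabilises mitochondria, rose to 30.8 to 39.2 CPM with OE, against 19.8 to 25.6 CPM in control (0.61 ± 0.09; edgeR adjusted p = 8.53e-05). Pidd1, a scaffold that activates caspase-2, rose (0.55 ± 0.13), and Rps27l, a ribosomal protein relative induced by p53, rose by 0.35 ± 0.12 on the log2 scale. Rps27l did not pass without OE library 1 (0.27) or 4 (0.32) or control library 1 (0.33), 2 (0.34) or 4 (0.26). Siva1, a death domain protein, did not pass (0.11 ± 0.11), and was at 0.04 without control library 4, 0.05 without OE library 4 and 0.16 without control library 2. Rps27l resembles the ribosomal protein gene Rps27, so its reads are uncertain.

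The 7 DNA repair targets were all tested, with 1 higher, 3 lower and a median of -0.05. That is 57.1% passing, beside 35.4% over all tested genes. The bypass polymerase gene Polk fell (-0.44 ± 0.08; edgeR adjusted p = 2.95e-04), as did Rrm2b, the ribonucleotide reductase subunit induced by p53 (-0.39 ± 0.10). Xpc, a sensor of DNA lesions, rose (0.26 ± 0.09), and Ddb2, which recognises ultraviolet lesions, fell (-0.79 ± 0.28) at levels of 0.558 to 0.623 CPM with OE and 0.734 to 1.24 CPM in control. Xpc did not pass without any one of OE libraries 2, 3 and 4 or control libraries 2, 3 and 4 (0.22 to 0.26). Ddb2 did not pass without any one of the 4 OE libraries or control libraries 1 and 2 (-0.81 to -0.69), nor by the DESeq2 Wald test (adjusted p = 0.0971) or without the low-count filter (edgeR adjusted p = 0.0975). Ddb2 overlaps Acp2 by gene position, so reads may be shared, which was not examined. Polk and Rrm2b also overlap scarcer counted genes.

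Of 12 metabolic and redox targets 11 were tested, with 4 higher, 2 lower and a median of 0.05. That is 54.5% passing, beside 35.4% over all tested genes. Gpx1, a glutathione peroxidase, rose to 62.7 to 66.5 CPM with OE, against 38.3 to 47.2 CPM in control (0.58 ± 0.07; edgeR adjusted p = 1.32e-05). Prkab1, a subunit of the energy sensor AMPK, rose (0.51 ± 0.08), as did Sesn2. Named after their values were seen, the adenylate kinase gene Ak1 rose (0.26 ± 0.10) and Aldh4a1, an enzyme of proline breakdown, fell (-0.48 ± 0.17). The list had 2 higher without OE library 2 or control library 3. It had 1 lower without OE library 1 or 2 or control library 2 or 3, and 3 lower without OE library 3 or control library 1.

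Among genes that act on p53, activators and cofactors were more often higher than lower. All 20 were tested, with 9 higher, 1 lower and a median of 0.17, beside 18.6% higher and 16.8% lower over all genes tested. The acetyltransferase genes Ep300 and Crebbp, whose products acetylate p53 and histones, rose by 0.40 ± 0.06 and 0.39 ± 0.06 (edgeR adjusted p = 1.19e-04 and 1.46e-04). Usp10, a deubiquitinase that stabilises p53, rose (0.39 ± 0.06), and so did the acetyltransferase gene Kat5 (0.49 ± 0.11). Crebbp and Kat5 overlap scarcer counted genes. The lower gene, named after its value was seen, was the damage kinase Atr (-0.19 ± 0.06), and 0 were lower without OE library 2 or 3 or control library 1 or 3.

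Of 11 restrainers besides Mdm2 and Mdm4, 10 were tested, with 2 higher, 1 lower and a median of 0.02. That is 30.0% passing, beside 35.4% over all tested genes. The deacetylase gene Sirt1 rose to 79.1 to 86.8 CPM with OE, against 48.7 to 67.6 CPM in control (0.56 ± 0.08; edgeR adjusted p = 7.85e-05). The ubiquitin ligase gene Rchy1 rose (0.29 ± 0.10), and the ligase gene Huwe1 fell (-0.24 ± 0.07). Rchy1 did not pass without OE library 1 (0.21) or control library 3 (0.26) or 4 (0.23), and it overlaps Thap6. Huwe1 did not pass without OE library 4 (-0.21). Ppp1r13l, which encodes the inhibitor iASPP, did not pass (-0.59 ± 0.24), though it did without OE library 2 (-0.79) or control library 2 (-0.69).

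Cell cycle genes that p53 is known to lower through p21 and the DREAM repressor complex were more often higher than lower. All 20 were tested, with 7 higher, 2 lower and a median of 0.13, beside 18.6% higher and 16.8% lower over all genes tested. With 1 library left out, 5 to 8 were higher. The mitotic kinase genes Plk1 (0.50 ± 0.07; edgeR adjusted p = 4.14e-05) and Aurka (0.42 ± 0.07) and the mitotic exit activator gene Cdc20 (0.60 ± 0.10) rose. The topoisomerase gene Top2a fell to 997 to 1054 CPM with OE, against 1354 to 1528 CPM in control (-0.47 ± 0.07). The other lower gene, named after its value was seen, was the cyclin gene Ccna2 (-0.18 ± 0.07). Only 1 was lower without any one of OE libraries 2, 3 and 4 or control libraries 1, 2 and 3, and 1 was lower with the replicate number as a block. Cdc20 and Ccna2 overlap Elovl1 and Exosc9.

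**Figure D5:**
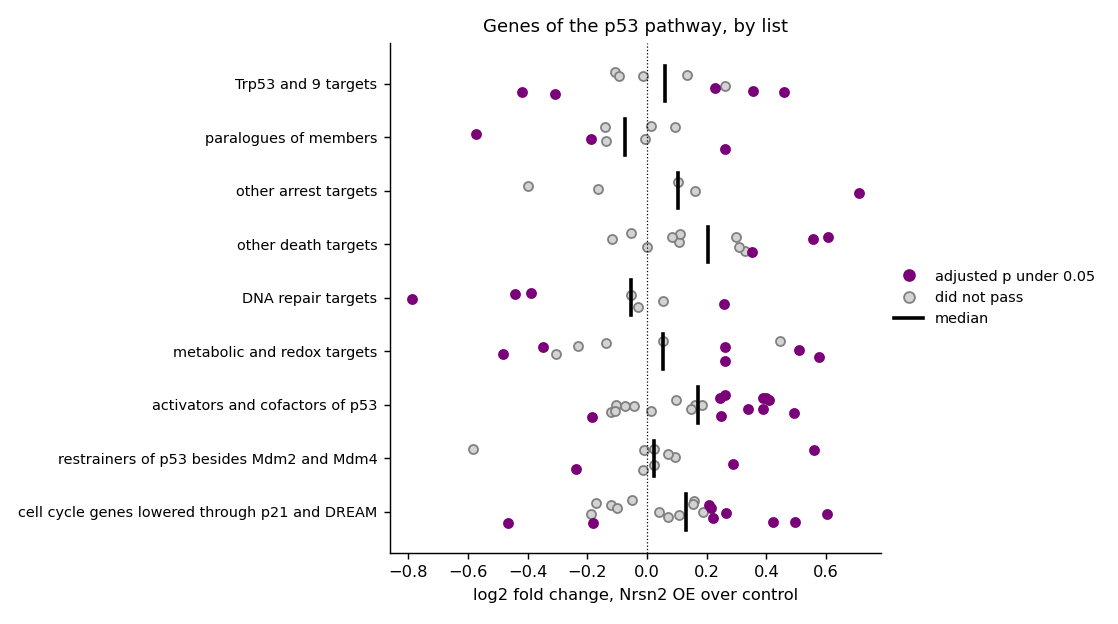
log2 fold change (OE over control) of every tested gene in each list, purple where the adjusted p was under 0.05 and grey where it was not, with the median as a black line and vertical scatter for display only. Medians run from -0.07 for paralogues to 0.21 for other death targets.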

How the data were processed

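Gene expression was measured in 8 libraries, 4 OE and 4 control, given in 1 deposited table. Build GRCm39, DESeq2 1.36.0, HTSeq 2.01, TopHat2 2.1.1 and cutadapt 2.10 are listed in the submitters' processing notes. Which step each served, and whether counting used strand, is not given in the sources used here. The authors deposited counts per Ensembl gene as whole numbers. A normalized signal by the authors, counts divided by DESeq2 size factors, was not used further. The authors' comparison is deposited as log2 fold changes, standard errors, a Wald score, a p-value and an adjusted p-value, per the file headers. Of 55414 rows, 6250 held no counts, and 298 rows without a symbol held 0.0236% of counts.

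Counts were tested in R 4.3.3 by edgeR 4.0.16 (quasi-likelihood F test) with TMM scaling, filterByExpr at a minimum count of 10, and Benjamini-Hochberg adjustment over 15187 genes. Standard errors and 95% intervals derive from the F statistic. Levels are CPM with TMM factors, and the ratio used a pseudocount of 0.5. On simulated data of 14945 genes with 200 changed, this test found 78.1% of the 1.5-fold and 96.9% of the 2-fold changes. False calls made up 3.45%. Every simulated gene had the same spread beyond counting noise (coefficient of variation 0.0862). Among the 10 genes the fitted value was largest for Cdkn1a (0.148) and Trp53inp1 (0.145), a spread that was not simulated. How often changes under 1.5-fold are found was not tested, and the largest change among the 10 genes was 1.37-fold (Trp53inp1). The share of false calls when many more genes change was not tested either, and 35.4% of tested genes passed here. Replicates differed by more than counting noise, at a chi-square over its degrees of freedom between 2.59 and 15.6. The pairs with OE library 1 gave 13.03 to 15.6, the other OE pairs 2.59 to 6.29 and the control pairs 4.59 to 11.00. Sequence sharing was counted in 31-base words of GENCODE M21 transcripts, and copies with at least 100 shared words were considered.

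The genes and lists were chosen with earlier results of these data known. Named genes are the 10, Nrsn2, the 4 genes with the smallest p of each list and the 3 nearest to Trp53, of which 1 list gene is not reported here. Alternatives were DESeq2 size factors, the DESeq2 1.42.0 Wald test, limma-voom 3.58.1, no low-count filter, the replicate number as a block, leaving out each library, and offsets for GC content and length.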

Additional observations from a re-analysis of the deposited data

Results flagged for a closer look

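The Mdm4 level of OE library 1, 205 CPM, stood apart from the other OE libraries, which held 228 to 229 CPM. Its gap to the nearest library was 0.941 of the group's range, above Dixon's 95% critical value for groups of 4. It was the only one of 30 groups of 4 libraries examined, over Nrsn2, the 10 p53 genes, the 3 genes nearest to Trp53 and the Mdm2 to Mdm4 ratio. Chance flags about 1 in 20 such groups. OE library 1 also held 4.66% of its counts in mitochondrial transcripts, compared with 3.38% to 3.75% in the other OE libraries and 4.81% to 5.65% in the control libraries, and the part of this in the Mdm4 level was not tested. Mdm4 had a log2 fold change of -0.10 with all libraries, -0.06 without OE library 1 and -0.04 without control library 4, and did not pass in any of these.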

How the results depend on the processing

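Trp53, Mdm2, Ccng1 and Zmat3 kept their direction and their call in all 14 alternatives. Leaving out 1 library moved the log2 fold change of Cdkn1a within -0.235 to 0.152, of Aen within 0.058 to 0.195, of Sesn1 within -0.045 to 0.029 and of Trp53inp1 within 0.35 to 0.67. Sesn1 turned to 0.004 without OE library 1 and to 0.029 without control library 3, and Cdkn1a to 0.15 without control library 4, none of them passing. The difference in the Mdm2 to Mdm4 ratio ran from 0.37 to 0.50 with 1 library left out, where 7 libraries allow no exact p under 0.0571, and was 0.45 within replicate numbers (p = 0.125, the smallest 4 pairs allow). Counts with 1 library left out ran from 0 to 1 higher and 1 to 2 lower for paralogues, 0 to 1 higher for DNA repair targets, 2 to 4 higher and 1 to 3 lower for metabolic targets, 0 to 1 lower for activators, 1 to 2 higher and 0 to 2 lower for restrainers and 1 to 3 lower for cell cycle genes. Without the low-count filter, 1 paralogue, 1 metabolic target, 0 activators and 1 cell cycle gene were lower and 0 DNA repair targets higher. With GC and length offsets, added after seeing the data, 0 paralogues were higher and 1 lower, 2 metabolic targets higher and 4 lower, 0 activators lower and 2 restrainers lower. With the replicate block, 1 cell cycle gene was lower, and of the named genes Ddb2 lost its call (adjusted p = 0.0615 in edgeR), as it did by the DESeq2 Wald test and without the low-count filter. Without that filter Sesn3, Xpc and Efna5 also lost their calls (edgeR adjusted p = 0.105, 0.0606 and 0.0907). With GC and length offsets Sesn2 and Sesn3 lost theirs (edgeR adjusted p = 0.0838 and 0.186), and Ppp1r13l gained one (edgeR adjusted p = 0.0281). The labels do not say that the replicate numbers pair the samples, so the block was an alternative only. Deviations of same-numbered libraries from their group means had correlations from -0.118 to 0.097, and those of differently numbered libraries from -0.165 to 0.162. The causes were not tested. Genes near or under 1 CPM, such as Ddb2, are limited by depth.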
